A study of Mus musculus with 16 samples.

Results

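The 55 histone genes among the 17951 genes of the deposited table were followed in sorted mouse microglia, member by member. They were chosen by symbol alone, as every listed gene whose deposited symbol begins with Hist1h, Hist2h, Hist3h, Hist4h, H2af, H3f3 or H1f. Of these, 46 carry the Hist symbols of the replication-dependent genes and 9 are variant (replacement) histone genes. A further 5 listed rows bear no deposited symbol but are named as histones by the annotation on GRCm38, and they were not included. All mice had received Methoxy-X04 (Me-X04), a dye that enters the brain and binds aggregates of Aβ, and microglia were sorted by FACS as Cd11b+ and Cd45+ cells and then by dye uptake. The 16 libraries comprised 7 from WT mice, whose microglia carried no dye, 5 from Me-X04- microglia of 5xFAD transgenic mice (TG Me-X04-) and 4 from Me-X04+ microglia of the same transgenic mice (TG Me-X04+). 5xFAD mice express mutant human amyloid precursor protein and presenilin from a neuronal promoter. TG libraries of the same number carry 1 animal label, so 4 animals gave both kinds of cells, and each WT library has an animal label of its own. The labels give an age of 2 months for WT and 6 months for TG mice and name the strain of both as 5xFAD, whereas the study's methods give 5 and 5.5 months for its animals. By the labels, age and genotype cannot be told apart in any comparison with WT.

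Histones package DNA into nucleosomes, in which pairs of H2A, H2B, H3 and H4 form the core and H1 binds the linker. Replication-dependent genes lie in clusters, are transcribed mainly in S phase and yield mRNAs that usually end in a stem-loop bound by SLBP instead of a poly(A) tail. Variant genes are transcribed throughout the cell cycle, mostly carry introns and yield polyadenylated mRNAs, and their products (H2A.Z, H3.3, macroH2A, H2A.X, H1.0) replace the canonical histones at particular places in chromatin.

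Because the 3′ stem-loop is what separates both kinds of transcript, it was sought in the reference transcripts of Gencode vM21 on GRCm38. The motif (5′ arm GGNNNT, loop TNTN and 3′ arm ANNNCC on the transcript strand, with all 6 stem pairs matched) was present in 30 of the 46 Hist genes and in 1 of the 9 variant genes, H2afx. Across 21901 protein-coding genes it was present in 69 (0.315%), and the 38 of these outside the 55 genes include 16 that the annotation gives histone symbols of the same kind. The most frequent form was carried by 17 genes, among them Hist1h1e and Hist1h2be, and a second form by 6 genes, all of the H4 type. Where an annotated transcript is short, as for Hist1h4k at 312 bases, a missing match does not show that the gene lacks the motif. The stem-loops of the genes that the results turn on are written here as DNA, with the 16 bases of the motif in capitals and 5 flanking bases on each side.
Hist1h1e: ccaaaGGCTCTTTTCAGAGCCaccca
Hist1h2be: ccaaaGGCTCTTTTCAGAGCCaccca
Hist2h2ac: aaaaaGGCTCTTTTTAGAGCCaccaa
Hist1h3c: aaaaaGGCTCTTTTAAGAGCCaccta
Hist2h3c1: acaaaGGCTCTTTTCAGAGCCaccac
Hist1h4d: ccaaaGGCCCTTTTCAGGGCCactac
Hist1h4h: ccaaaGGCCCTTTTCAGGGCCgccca
H2afx: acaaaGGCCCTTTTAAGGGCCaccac
The H4 genes Hist1h4d and Hist1h4h and the variant H2afx share a stem that differs from that of the H1, H2A, H2B and H3 genes shown, and the H2B gene Hist1h2bc had no match in its annotated transcripts. The longest annotated transcript of Hist1h2be continued for 1861 bases past the stem-loop, that of Hist1h1e for 1153 bases, that of Hist1h4h for 46 bases and that of Hist1h2ab for 11 bases. A poly(A) signal (AATAAA or ATTAAA in the last 50 bases of a transcript) was found in 5 of the 36 Hist genes whose deposited length is under 1000 bases, in 9 of the 10 longer ones and in 8 of the 9 variants, beside 77.9% of all protein-coding genes. The 36 and the 10 are called short and long Hist genes here. The deposited length equals the exon length in vM21 for 38 of the 55 genes. Hist1h1d, for instance, has a deposited length of 744 bases against 7425 in vM21, and Hist1h1e one of 748 against 1930. The study's methods name an earlier Gencode release for counting, so the transcripts described here may differ from those counted.

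Of the Hist genes, 34 lie on chromosome 13, 10 on chromosome 3, 1 on chromosome 11 and 1 on chromosome 6. By type there are 14 H2B, 13 H2A, 10 H4, 6 H3 and 3 H1 genes. The variants are scattered, with H2afz at chr3:137864487-137866922, H3f3b at chr11:116021912-116027962 and H3f3a at chr1:180800832-180813943 (all GRCm38). H3f3c, at chr2:119665626-119666036, is typed as a processed pseudogene in this annotation. Many members share short words with other annotated genes, counted on either strand and including genes that overlap them in place. On the opposite strand, 20 of the 55 members overlap another gene. The median short Hist gene shared 57.5% of its 50-base words with transcripts of other genes, against 23.9% for the long Hist genes and 7.00% for the variants. Among the variants the share ran from 0% (H2afv) to 73.8% (H3f3c), with 35.4% for H2afz and 27.1% for H3f3a. In the short Hist genes it ran from 2.25% to 100%. Hist2h2aa1, Hist2h2aa2, Hist2h2bb, Hist2h3b and Hist2h3c1 shared all of them (100%). Gm20628, on the opposite strand, overlaps all 381 bases of Hist2h2bb and all 488 of Hist2h3b, and Gm20634 holds all of Hist2h3c1. Such overlap in place can by itself give 100%, so for Hist2h2bb, Hist2h3b and Hist2h3c1 it need not mean that other histone genes match. The values of all the genes at 100% are uncertain between them and the genes they share sequence or position with. How reads that map to several genes, or strand, were counted is not given in the sources used here. Hist1h1e and Hist1h2be overlap on the same strand, Hist3h2a overlaps Trim17, Hist2h2bb overlaps Gm42743 by 226 bases, and Gm20634 overlaps Hist2h2aa1 by 529 bases and holds all 1825 bases of Hist2h3c1, so these values may share reads with their neighbours. These overlaps are those of vM21 and may differ in the annotation used for counting, where Hist1h1e is shorter.

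The deposited values were log2 RPKM, that is log2 reads scaled by gene length and by a TMM-adjusted library size, with a small prior added. RPM denotes reads scaled by that library size alone, with no gene length. Whole reads were recovered from them, and 15623664 to 27579017 reads per library lay on the listed genes. The libraries fall into 2 sets that are not the study's groups. After group means were subtracted and histone genes left out, the leading principal component (35.8% of the variance) had 1 largest gap between libraries, and the sets lie on either side of it. Set A holds 7 libraries (WT replicates 1 to 3 and replicates 1 and 2 of both TG groups) and set B the other 9. The study's methods name an earlier and a later sequencer but do not say which library ran on which, and what separates the sets was not tested. Mitochondrial genes took 27.2% to 44.8% of the reads in TG Me-X04+ libraries, 18.2% to 35.6% in TG Me-X04- and 11.0% to 24.1% in WT libraries. All 10 microglial marker genes were listed, with a summed level of 12314 to 22865 RPM in every library, and none of the 3 T cell markers was listed.

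Variant genes were the better measured class. Averaged over the 16 libraries, the 9 variants had a median level of 2.65 log2 RPKM, from 1.11 (H2afx) to 5.00 (H2afz). The long Hist genes had a median of 1.15 and the short Hist genes one of 0.48 log2 RPKM, although the highest level of all 55 genes was that of the short H4 gene Hist1h4d, at 5.38. Per library, the 46 Hist genes together received 1176 to 7404 reads and the 9 variants 3275 to 6945. In set A libraries, 4 to 12 of the 55 genes had 0 reads and only 31 to 40 had more than 3, whereas in set B libraries 0 or 1 gene had 0 reads and 54 or 55 had more than 3. In set A the 6 most read genes took 79.7% of all Hist reads, led by Hist2h3c1 at 29.0%, Hist3h2a at 15.1% and Hist1h2be at 13.0%. In set B the 6 most read took 56.5%, led by Hist1h4d at 12.2% and Hist1h1e at 10.7%.

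The short Hist genes differed more between the 2 sets of libraries than between any of the study's groups. Their summed level was 21.0 to 44.3 RPM in the 7 set A libraries and 100.4 to 199.0 in the 9 set B libraries, with no overlap. The ratio of set means was 3.50 within WT, 4.30 within TG Me-X04- and 4.17 within TG Me-X04+. In set A, the sums were 25.2 to 43.3 in WT, 21.0 to 39.8 in TG Me-X04- and 37.8 to 44.3 RPM in TG Me-X04+ libraries. In set B, they were 101.0 to 122.8 in WT, 100.4 to 165.1 in TG Me-X04- and 143.4 to 199.0 in TG Me-X04+ libraries. The long Hist genes differed between the sets in a direction that depended on the group. They summed to 119.8 to 168.7 RPM in set A and 81.0 to 109.8 in set B among WT libraries, but to 50.3 to 72.4 and 88.5 to 103.2 among TG Me-X04- libraries, and to 88.8 to 91.1 and 88.6 to 124.5 among TG Me-X04+ libraries. In RPM the variants were lower in set B, at 0.782 of the set A mean for WT, 0.838 for TG Me-X04- and 0.941 for TG Me-X04+ libraries. As a plain share of the reads on listed genes, with no TMM adjustment, these ratios were 0.958, 1.31 and 1.52. The direction between the sets was thus reversed in both TG groups.

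**Figure D1:**
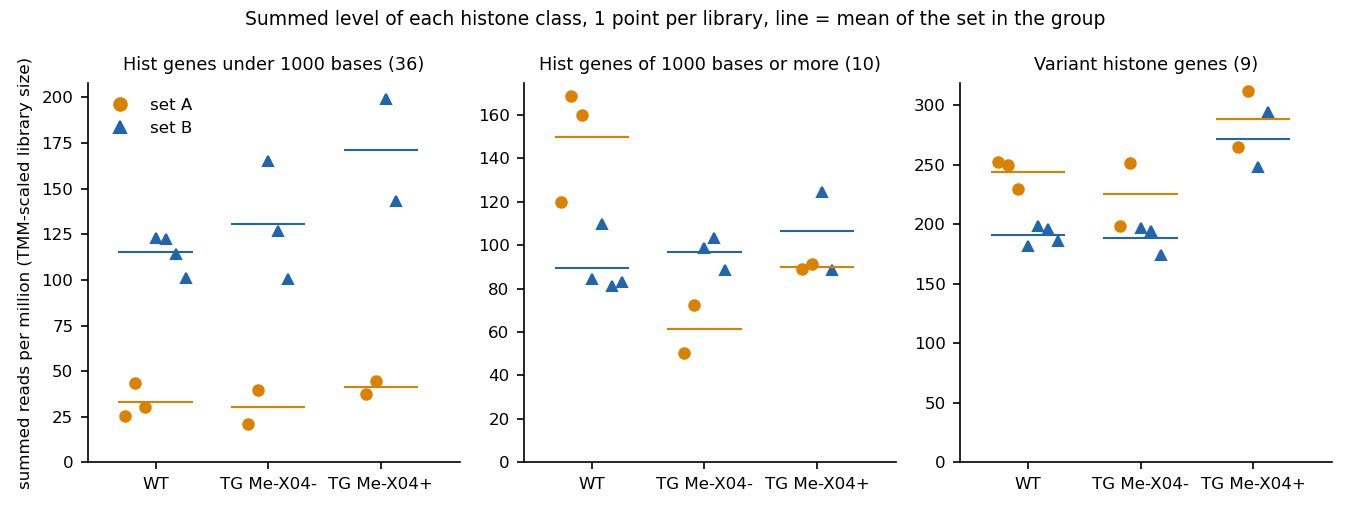
Summed RPM of the 36 short Hist, 10 long Hist and 9 variant genes (vertical axes, each from 0) in every library of the 3 groups (horizontal axes), with circles for set A, triangles for set B and lines for the mean of each set in a group. For the short Hist genes every set B library (100.4 or more) lies above every set A library (44.3 or less). The variant sums of the TG Me-X04+ libraries lie at 248.2 to 311.9 with the TMM adjustment. As a plain share of listed reads (not drawn), the set A variant means were 162.8 RPM in TG Me-X04+, 190.9 in TG Me-X04- and 243.7 in WT. In set B the plain-share variant means were 247.7 RPM in TG Me-X04+, 249.6 in TG Me-X04- and 233.4 in WT. The order of the groups for the variants thus depended on the scaling.

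Member by member, the difference of set B from set A, fitted beside the 3 groups, was positive for all 36 short Hist genes, with a median of 2.21 on the log2 scale. It was at least 1 for 33 of them, and the libraries of the sets did not overlap for 20, beside 21.6% and 4.79% of all genes tested in the same direction. The median of all genes was 0.20. The 2 largest differences belonged to the linker histone genes Hist1h1d (3.93) and Hist1h1e (3.73). Hist1h1e, for instance, had 2 to 81 reads in every set A library and 477 to 1004 in every set B library. By type, the median was 2.39 for the 13 H2A genes, 2.13 for the 14 H2B genes, 1.80 for the 10 H4 genes and 1.28 for the 6 H3 genes. Short Hist genes with the stem-loop motif in an annotated transcript had a median of 2.29 (23 genes) and those with no match there one of 1.90 (13 genes). The latter include genes with short annotated transcripts, such as Hist1h4k (312 bases) and Hist1h2bl (381 bases), so they need not lack a stem-loop. The long Hist genes ranged from −1.96 (Hist2h3c1) to 2.14 (Hist1h2bq), with no gene whose sets did not overlap, and 4 of the 10 (Hist2h4, Hist2h3c2, Hist1h2br and Hist1h2bq) lay at 1.92 to 2.14, within the range of the short genes. The variants had a median of 0.07, and the only one without overlap was H2afy, which encodes macroH2A and was lower in set B, at −0.95, beside 5.36% of all genes without overlap in that direction. These are descriptions, with no test.

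**Figure D2:**
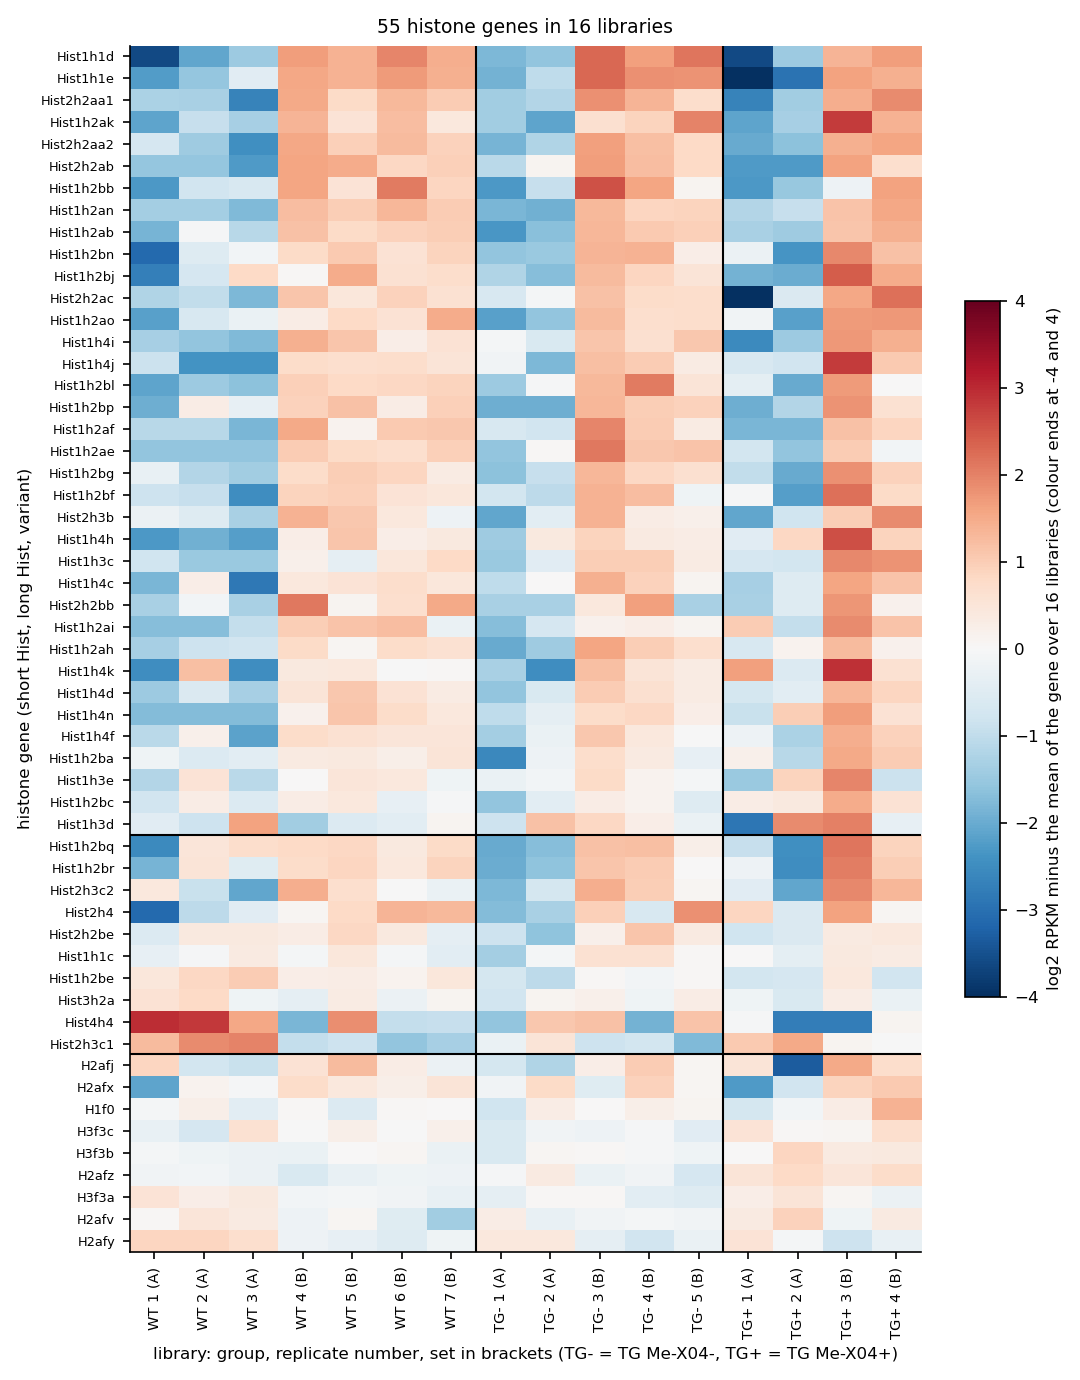
Log2 RPKM of the 55 histone genes (rows) in the 16 libraries (columns, ordered by group and set), each as the difference from the mean of the gene over all libraries. The 36 short Hist genes at the top are mostly blue in set A and red in set B columns of every group, and the 9 variants at the bottom differ less between the sets.

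**Figure D3:**
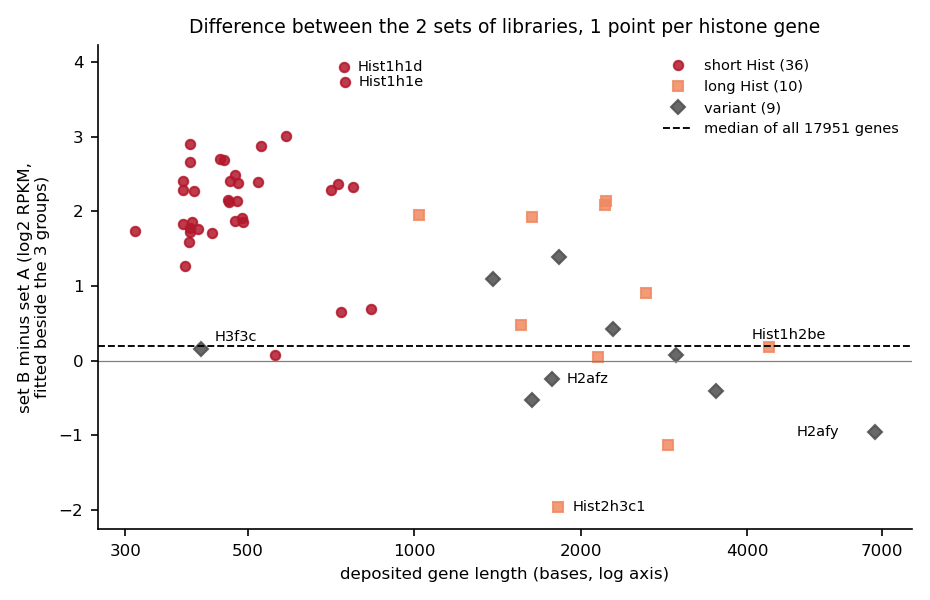
Difference between set B and set A on the log2 scale (vertical axis) against the deposited gene length in bases (horizontal log axis), 1 point per histone gene, with the median of all 17951 genes as a dashed line (0.20). The 36 short Hist genes lie above 0, with a median of 2.21, whereas H3f3c, a variant of 411 bases, lies at 0.16.

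Phagocytic against non-phagocytic microglia of the same mice is the study's central comparison. Calls came from limma with the 3 groups in 1 fit and Benjamini-Hochberg adjustment over all 17951 genes, and required an adjusted p below 0.05 together with a log2 fold change of 0.7 or more in size. By this rule H2afz was the only one of the 55 histone genes called between the Me-X04+ and Me-X04- cells of TG mice, and it was higher in Me-X04+ cells, where 5.49% of all genes were called and 3.44% were called higher. None of the 46 Hist genes was called by limma, with 1 at an unadjusted p under 0.05, and under limma voom on the recovered reads the count was also 0. Hist1h2bc was called once the animal was a block (11.8% of all genes called) or the sets had a term (11.9%), and limma voom with the term called 2 Hist genes (10.4%). The median log2 fold change was 0.40 over the 9 variants and 0.11 over the 46 Hist genes, beside −0.09 over all genes. In bulk libraries, a share of cells with more transcript and more transcript in every cell cannot be told apart.

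H2afz encodes H2A.Z, a variant placed next to transcription start sites by dedicated exchange complexes. Its log2 RPKM was 5.53, 5.81, 5.49 and 5.72 in the TG Me-X04+ replicates 1 to 4. In TG Me-X04- replicates 1 to 5 it was 4.97, 5.35, 4.75, 4.87 and 4.32, and in the 7 WT libraries it ran from 4.40 through a median of 4.80 to 4.91. Every TG Me-X04+ library was therefore above every library of the other two groups. H2afz and H3f3c were the variants whose Me-X04+ libraries all lay above the Me-X04- ones, a pattern of 4.8% of all genes. The log2 fold change of H2afz was 0.78 ± 0.19 (SE, adjusted p = 0.0246 by limma) and it was higher in the Me-X04+ cells of 4 of 4 animals, by 0.45 to 0.85, as were 15.1% of all genes. With a term for the sets it was 0.76 ± 0.15 (limma adjusted p = 0.00318). Within set B it was 0.96 (adjusted p = 0.0127) and within set A 0.51 (adjusted p = 0.34).

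The call of H2afz was lost under other scalings and without some single libraries. Scaled by the reads outside mitochondrial genes, the median of all genes moved from −0.09 to −0.49, the variant median to 0.00 and the fold change of H2afz to 0.39 (limma adjusted p = 0.133). As a plain share of the reads on listed genes, with no TMM adjustment, H2afz stood at 48.4 to 53.9 RPM in the set A TG Me-X04+ libraries against 51.2 to 57.3 in TG Me-X04-, and at 78.0 to 80.0 against 50.4 to 65.1 in set B. Leaving out TG Me-X04- replicate 3 or 5 or TG Me-X04+ replicate 2 or 4 gave fold changes of 0.76, 0.65, 0.73 and 0.75 and adjusted p of 0.0547, 0.0661, 0.0728 and 0.0509 by limma. Blocking on replicate number gave a fold change of 0.71 (limma adjusted p = 0.0514), and blocking on the animal gave 0.73 (adjusted p = 0.00434), which was called.

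The H3.3 genes encode a replacement H3 deposited outside S phase. H3f3b, the more abundant of them, was at 4.39, 5.23, 4.74 and 4.79 log2 RPKM in TG Me-X04+ replicates 1 to 4 and at 3.78, 4.46, 4.42, 4.35 and 4.21 in TG Me-X04- replicates 1 to 5. The groups overlapped, with TG Me-X04+ replicate 1 below 2 of the TG Me-X04- libraries. Its difference of 0.55 ± 0.19 did not pass (limma adjusted p = 0.119) and, with a term for the sets, had an adjusted p of 0.0418 at 0.55, under the fold limit. H3f3a gave 0.40 ± 0.25 (limma adjusted p = 0.435). H3f3c, most of whose 50-base words (73.8%) also occur in other genes, gave 0.61 ± 0.24 (limma adjusted p = 0.172). All 3 were higher in the Me-X04+ cells of 4 of 4 animals, as were 15.1% of all genes, by 0.32 to 0.77 for H3f3b, 0.01 to 0.62 for H3f3a and 0.18 to 1.15 for H3f3c. On the plain share of reads the groups overlapped for H3f3b in both sets, at 36.8 to 78.2 RPM in TG Me-X04+ and 37.4 to 86.7 in TG Me-X04- libraries.

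The other variants did not pass the test in this comparison. H2afy (macroH2A, tied to silenced chromatin) gave −0.07 ± 0.37 on the log2 scale, H2afx (H2A.X, phosphorylated at DNA breaks) −0.49 ± 0.65 and H2afj −0.04 ± 0.77. H2afv, which encodes a second H2A.Z, gave 0.44 ± 0.34 and H1f0, the linker histone H1.0 of resting and differentiated cells, 0.24 ± 0.35. H2afj and H2afx were thinly covered in some libraries. H2afj had 5 reads and H2afx 25 reads in TG Me-X04+ replicate 2, and H2afx was lower still in replicate 1. The plain share of listed reads of H2afx in these 2 libraries was 0.312 to 0.907 RPM.

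**Figure D4:**
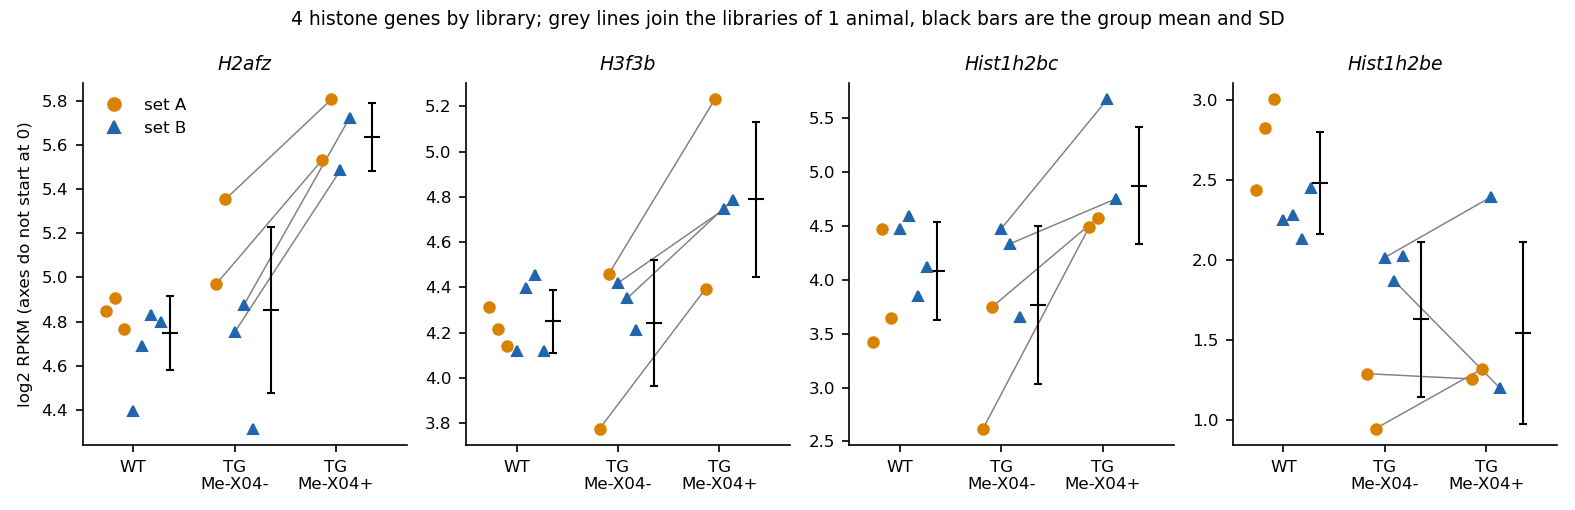
Log2 RPKM (vertical axes, not from 0) of H2afz, H3f3b, Hist1h2bc and Hist1h2be in each library of the 3 groups, with grey lines joining libraries of 1 animal and black bars for the group mean and SD. H2afz has all 4 TG Me-X04+ libraries (5.49 or higher) above the other 12 (5.35 or lower), while Hist1h2be has all 7 WT libraries (2.13 or higher) above all 5 TG Me-X04- libraries (2.02 or lower).

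Among the Hist genes, Hist1h2bc showed the clearest difference between Me-X04+ and Me-X04- cells. It encodes a core H2B, lies at chr13:23684199-23692908 (GRCm38) and had the second highest mean level of the Hist genes. It was at 4.49, 4.58, 5.68 and 4.75 log2 RPKM in TG Me-X04+ replicates 1 to 4 and at 2.62, 3.75, 4.48, 4.34 and 3.65 in TG Me-X04- replicates 1 to 5. The groups did not overlap, a pattern of 1 of the 46 Hist genes and of 4.8% of all genes in this direction. The difference was 1.11 ± 0.36 (limma adjusted p = 0.0872), and it was positive in 4 of 4 animals (0.42 to 1.87), as for 15.1% of all genes. Blocking on the animal gave 1.10 (limma adjusted p = 0.0148), which was called. With a term for the sets it was 1.17 ± 0.29 (limma adjusted p = 0.0108) and was called, in a fit that called 11.9% of all genes. On the plain share of reads, Hist1h2bc stood at 9.51 to 9.67 RPM in set A TG Me-X04+ libraries against 4.07 to 7.74 in TG Me-X04-, and at 16.9 to 36.8 against 13.1 to 22.2 in set B. Scaled by the reads outside mitochondrial genes the difference was 0.71 (limma adjusted p = 0.297).

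Of the other Hist genes described in full, none was called here in the fit of all libraries without a term for the sets. Hist1h1e had 2, 13, 521 and 477 reads in TG Me-X04+ replicates 1 to 4 and 32, 72, 1004, 674 and 641 reads in TG Me-X04- replicates 1 to 5. Its difference of −1.82 ± 1.29 on the log2 scale did not pass (limma adjusted p = 0.502), nor with a term for the sets, where it was −1.44 ± 0.49 (adjusted p = 0.0623), although it was lower in the Me-X04+ cells of 4 of 4 animals, as were 13.1% of all genes. With that term, limma called Hist1h1e lower under scaling by reads outside mitochondrial genes (−1.81, adjusted p = 0.0171), under quantile normalization (−1.40, adjusted p = 0.0188) and without TG Me-X04+ replicate 3 (adjusted p = 0.0336) or 4 (adjusted p = 0.0412). With the term, the scaling called 14.2% of all genes lower and the quantile normalization 4.84%. As a plain share of listed reads, Hist1h1e stood at 0.0892 to 0.472 RPM in TG Me-X04+ against 1.79 to 2.86 in TG Me-X04- libraries of set A, and at 17.3 to 22.3 against 31.7 to 49.8 in set B. These ranges rest on 2 against 2 libraries in set A and 2 against 3 in set B. The share of all genes with such ranges was not computed. Hist1h4d, the highest of the class, was at 4.68 to 6.70 log2 RPKM in TG Me-X04+ and 3.80 to 6.38 in TG Me-X04- libraries, and gave 0.30 ± 0.60. Hist3h2a gave −0.13 ± 0.29 and Hist2h2aa1 −0.44 ± 1.03. Hist2h3c1, an H3 gene that shares all its words with other genes, gave 1.28 ± 0.73 (limma adjusted p = 0.373) and was higher in 4 of 4 animals. Over the 4 animals, 4 of the 36 short Hist genes were higher in every pair and 3 were lower in every pair, no larger a share than the 15.1% and 13.1% of all genes.

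Within the sets the picture differed. In set B, limma on its 9 libraries called 12.6% of all genes between Me-X04+ and Me-X04- cells, and of the histone genes H2afz, Hist2h2ac (1.01, adjusted p = 0.0358) and Hist2h3c1 (1.17, adjusted p = 0.0452) were called, all higher in Me-X04+ cells. The median over the 46 Hist genes was 0.53 there, with 33 positive, and that over the variants 0.59, beside −0.02 over all genes. In set A, with 7 libraries, limma called 0.474% of all genes and 0 of the histone genes, 3 of which had an unadjusted p under 0.05. The Hist median was 0.12 in set A, with 25 of 46 positive. Hist2h2ac stood at −2.03 in set A against 1.01 in set B, with 0 and 16 reads in the set A TG Me-X04+ libraries. The difference between the sets was not tested.

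Against WT, TG Me-X04+ microglia differed in H2afz, which was higher, and in Hist1h2be, which was lower, where limma called 14.3% of all genes. H2afz gave 0.89 ± 0.18 (limma adjusted p = 0.00251), with no overlap between the groups, a pattern of 6.56% of all genes in this direction. It stayed under an adjusted p of 0.05 in each set alone, at 0.83 in set A (9.2% of all genes called) and 0.92 in set B, and without any single library. Scaled by the reads outside mitochondrial genes it was 0.59 (limma adjusted p = 0.0112) and under the fold limit. As a plain share of listed reads, with no TMM adjustment, H2afz overlapped WT in set A, at 48.4 to 53.9 against 44.9 to 54.1 RPM. In set B it stood at 78.0 to 80.0 RPM in TG Me-X04+ against 45.55 to 63.9 in WT libraries. H3f3b gave 0.54 ± 0.18 (limma adjusted p = 0.0549). H2afy ran from −0.695 to −0.163 over 23 other fits (limma adjusted p from 0.0107 to 0.803), under the fold limit. The variant median was 0.31 and the Hist median 0.08, beside −0.11 over all genes.

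Hist1h2be, a long H2B gene at chr13:23583670-23621124 (GRCm38), was at 2.13 to 3.00 log2 RPKM in the 7 WT libraries, with a median of 2.44. It was at 1.26, 1.32, 2.39 and 1.20 in TG Me-X04+ replicates 1 to 4 and at 1.29, 0.95, 2.02, 1.87 and 2.02 in TG Me-X04- replicates 1 to 5. TG Me-X04+ replicate 3 lay within the WT range and the other 3 below it. The difference of TG Me-X04+ from WT was −0.94 ± 0.29 (limma adjusted p = 0.0392). It was −1.47 (adjusted p = 0.0476) within set A and −0.48 (adjusted p = 0.267) within set B, and leaving out any one of WT replicates 1, 2, 3 or 7 or of TG Me-X04+ replicates 1, 2 or 4 took its adjusted p to 0.0563 or more. TG Me-X04- cells stood below WT by a like amount, at −0.85 ± 0.27, which did not pass (limma adjusted p = 0.523), although the groups did not overlap, as for 0.407% of all genes in this direction. Between Me-X04+ and Me-X04- cells the difference was −0.09 ± 0.31 (limma adjusted p = 0.918).

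With a term for the sets, 3 more Hist genes were higher in TG Me-X04+ than in WT microglia, where 21.8% of all genes were called. They were Hist1h2bc (0.84 ± 0.27, adjusted p = 0.0285), the H4 gene Hist1h4h (1.73 ± 0.44, adjusted p = 0.00739) and the H3 gene Hist1h3c (1.09 ± 0.38, adjusted p = 0.0417), all by limma. Leaving out 1 library at a time, the call of Hist1h4h was kept in 11 of 11 fits, that of Hist1h2bc in 6 (lost without WT replicate 1, 6 or 7 or TG Me-X04+ replicate 2 or 3) and that of Hist1h3c in 4 (lost without WT replicate 2, 3, 4, 5 or 6 or TG Me-X04+ replicate 3 or 4). The highest adjusted p of these fits was 0.117 for Hist1h2bc and 0.125 for Hist1h3c. Under limma voom with the term, Hist1h4h (adjusted p = 0.086) and Hist1h3c (adjusted p = 0.11) were not called. Hist1h4h had 9, 27, 144 and 44 reads in TG Me-X04+ replicates 1 to 4. In WT libraries it had 2, 3 and 2 reads in set A and 27 to 56 in set B. Both TG Me-X04+ libraries were above WT in set A (0.72 and 2.01 against −0.77 or lower), whereas in set B replicate 4, at 2.05 log2 RPKM, lay within the WT range of 1.43 to 2.27. Hist1h3c had 1, 1, 21 and 20 reads in TG Me-X04+ libraries and 0, 0 and 1 in set A and 3 to 9 in set B WT libraries, so 6 of the 11 values lie at or under 3 reads. In set B alone, limma called H2afz, H1f0 (0.95, adjusted p = 0.0403), Hist1h2ba, Hist2h2ac, Hist1h3c and Hist2h3c1 higher than WT, among 20.3% of all genes. Set A differed for most of these. There the fold change was −0.32 for H1f0, −0.07 for Hist1h2ba, −1.06 for Hist2h2ac, −0.43 for Hist2h3c1 and 0.57 for Hist1h3c, none of them called, and H2afz alone was called in both sets.

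**Figure D5:**
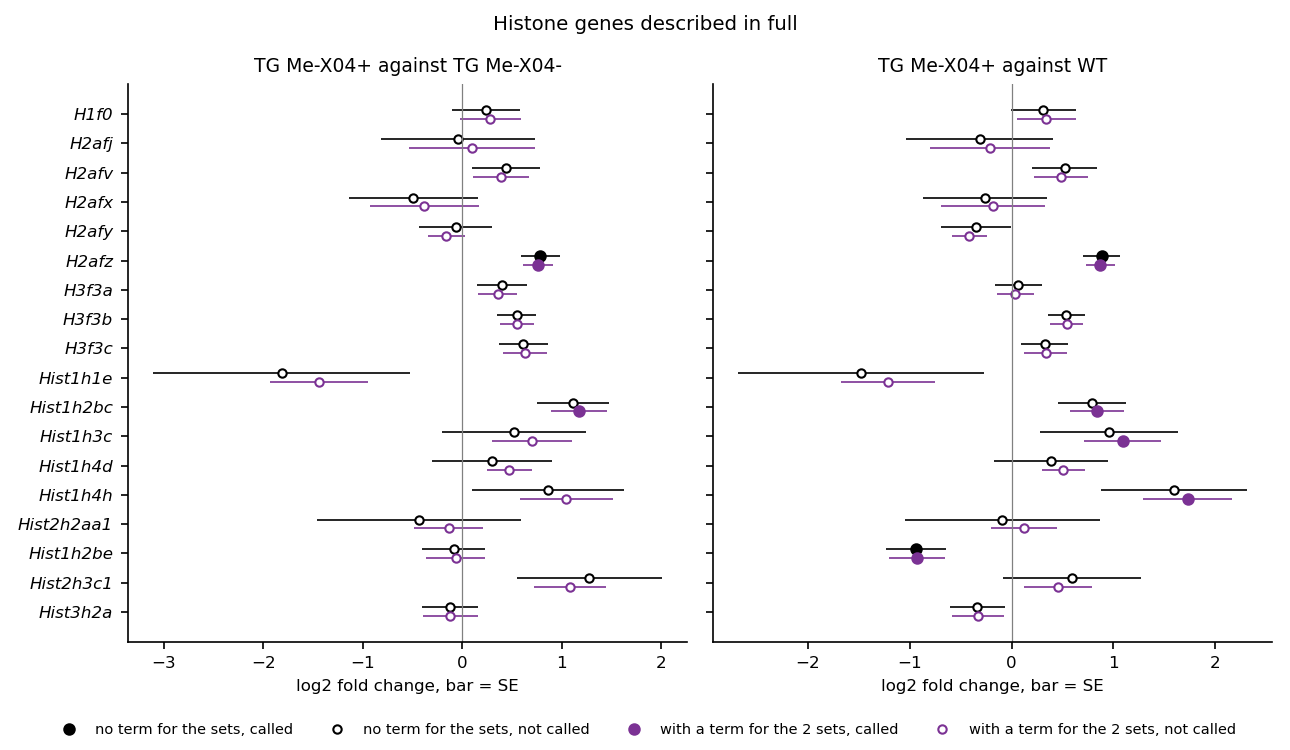
Log2 fold change with its SE (horizontal axes) of the 18 histone genes described in full, for TG Me-X04+ against TG Me-X04- (left) and against WT (right), without (black) and with (purple) a term for the 2 sets of libraries, and filled where called. H2afz is filled in both comparisons and fits (0.76 to 0.89), and most Hist genes have shorter bars in the fit with the term, such as Hist1h1e at 0.49 against 1.29 on the left.

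Between TG Me-X04- and WT microglia no histone gene passed the test, where limma called 0.201% of all genes. One Hist gene, Hist1h2be, had an unadjusted p under 0.05. The median log2 fold change was 0.06 over the Hist genes and −0.01 over the variants, beside 0.01 over all genes. H2afz differed by 0.11 ± 0.17 and H3f3b by −0.01 ± 0.17. With a term for the sets, limma called 0.563% of all genes and again 0 histone genes, with 1 Hist gene at an unadjusted p under 0.05.

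The remaining genes of the pathway were taken from 3 lists. Of 24 measured S phase and proliferation genes, Mki67 and Tyms were higher in Me-X04+ than in Me-X04- cells, and 5, among them Mki67, Top2a, Mcm6 and Pcna, were higher than in WT, with none lower, where 5.49% and 14.3% of all genes were called. Mki67, a marker of cycling cells, was at 4.45, 4.36, 2.29 and 2.57 log2 RPKM in TG Me-X04+ replicates 1 to 4, against 0.53 to 1.60 in TG Me-X04- and −1.20 to 0.52 in WT libraries. Its fold change was 2.44 ± 0.50 against TG Me-X04- (limma adjusted p = 0.00821) and 3.60 ± 0.47 against WT (adjusted p = 5.45e-05). Among TG Me-X04+ libraries, Mki67 was higher in the 2 of set A, where the summed level of the short Hist genes was low. In the other groups the set A mean of its plain share of listed reads was the lower one, at 7.55 against 13.9 RPM in WT and 21.0 against 23.6 RPM in TG Me-X04- libraries. Top2a rose by 3.41 ± 0.78 and Pcna by 1.16 ± 0.28 against WT, while against TG Me-X04- they gave 2.60 ± 0.84 (limma adjusted p = 0.0834) and 0.78 ± 0.30 (adjusted p = 0.16).

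Of 17 genes of histone gene transcription and 3′ end processing, none was called by limma in any of the 3 comparisons, with 1, 1 and 0 at an unadjusted p under 0.05 for TG Me-X04+ against TG Me-X04-, TG Me-X04+ against WT and TG Me-X04- against WT. Slbp, which binds the stem-loop, gave −0.09 ± 0.29 between Me-X04+ and Me-X04- cells, and Npat, the coactivator of Hist gene transcription, 0.45 ± 0.33. Of 30 measured chaperone and deposition genes, Nap1l1, a carrier of H2A and H2B, was higher in Me-X04+ than in Me-X04- cells (1.00 ± 0.22, limma adjusted p = 0.0121). Against WT, Npm1 (1.92 ± 0.51), Nap1l1 (1.16 ± 0.20) and Hat1, which acetylates new H4 (1.09 ± 0.34), were higher and none was lower. Scaled by the reads outside mitochondrial genes, limma kept Mki67 against TG Me-X04- and Mki67, Top2a, Pcna, Npm1 and Nap1l1 against WT, where 1 S phase gene and 1 processing gene were then lower. That scaling called 1.39% of all genes higher against TG Me-X04-, and 5.62% higher and 11.5% lower against WT.

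Markers of other cells were low beside the microglial sum. Summed levels were 4.7 to 7.8 RPM for Ccr2, the 1 listed monocyte marker, in TG Me-X04+ libraries against 8.7 to 16.6 in TG Me-X04- and 13.2 to 25.5 in WT. The 3 border macrophage markers summed to 4.9 to 81.8 in TG Me-X04+ and 6.1 to 28.4 in TG Me-X04-, the 2 listed endothelial markers (Pecam1 and Flt1) to 14.1 to 57.4 and 7.9 to 14.1, and the 3 listed neuronal markers to 0.4 to 3.1 and 3.1 to 6.5 RPM. Cldn5, Ly6c2, Gad1 and Slc17a7 were not listed. Their part in the histone results was not tested.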

How the data were processed

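Microglial RNA of 16 libraries was measured by bulk RNA-seq after amplification with Ovation RNA-Seq System V2. Per the submitters' processing notes and the methods, the authors trimmed reads with Trim Galore 0.4.4, aligned them to GRCm38 with STAR 2.5.4b, counted them per Gencode gene with featureCounts and deposited log2 RPKM from edgeR 3.24.3 with TMM scaling. Whether strand was used, and how multi-mapping reads were counted, is not given in the sources used here. Read counts were recovered from the deposited log2 RPKM values, and 100% came out whole within 0.01 reads. The table also held the authors' own comparison columns (fold changes and p-values), which were not used. The members and gene lists were chosen with earlier results of these data known. Groups came from the sample labels, which give each WT library an animal of its own and pair the TG libraries of 4 animals.

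For its own calls the study used quasi-likelihood F-tests on read counts. Because the deposited values are on a log2 scale, the main test was limma 3.58.1 (lmFit, eBayes with trend, R 4.3.3, two-sided) on all 16 libraries with 1 coefficient per group and Benjamini-Hochberg adjustment. On simulated data it was checked for the sign of its calls and for false calls. How many changed genes it finds was held to a limit only where the simulated sets did not differ. Its power under a set difference like the measured one was not held to that limit. Alternatives were a term for the 2 sets of libraries, scaling by reads outside mitochondrial genes, quantile normalization, median centring, filters, limma voom on recovered reads, replicate blocks and leaving out each library. Fits on 1 set alone, and 2 choices together, were added after seeing the data. The sets themselves were read from these expression values, so every fit with the term rests on a covariate taken from the data. Genes described in full were all variants, the 6 Hist genes with the highest mean level and all members called in any comparison by 1 of 2 fits. These were the main fit and the fit of all libraries with the term for the sets. Of the other lists, at most 4 called genes were named, with Slbp, Npat, Mki67, Top2a and Pcna. Same-numbered TG libraries correlated in their deviations from the group means at 0.292 to 0.329 (4 pairs), and differently numbered ones of the same set at a mean of 0.272. Stem-loops and gene positions were read from Gencode vM21 (GRCm38), and figures were drawn with matplotlib 3.10.9.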

Additional observations from a re-analysis of the deposited data

Results flagged for a closer look

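Over the 3 groups of 7, 5 and 4 libraries, 66 sets of values were examined for a library far from the rest of its group, and 6 held one, and chance alone gives about 1 in 20. H1f0 stood at 1.86 log2 RPKM in TG Me-X04- replicate 1, against 2.65 to 2.96 in the other 4. H2afx stood at −0.98 log2 RPKM in WT replicate 1, against 1.07 to 1.86 in the other 6. H2afz stood at 4.40 log2 RPKM in WT replicate 4, against 4.69 to 4.91 in the others. Hist1h2be stood at 2.39 log2 RPKM in TG Me-X04+ replicate 3, against 1.20 to 1.32 in the others, and the same library held the highest summed level of the 10 long Hist genes, at 124.5 RPM (reads scaled by library size) against 88.6 to 91.1. Hist1h4h stood at −0.25 log2 RPKM in TG Me-X04- replicate 1, against 1.48 to 2.04 in the others.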

How the results depend on the processing

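No result changed direction past the threshold. Of the Hist genes, 0 were called between Me-X04+ and Me-X04- cells of TG mice. A term for the 2 sets gave 1, as did that term with a robust variance model or with scaling outside mitochondrial reads (then lower), and so did the replicate block on the animal. Set B alone, the term with limma voom, and the term with that block gave 2, and the term with quantile normalization gave 3. The calls over all genes rose too, from 5.49% to 11.8% with the animal block and 11.9% with the term, also with robust variance. They were 12.6% in set B, 10.4% with the term and limma voom and 12.7% with the term and the block. The term with quantile normalization called 10.9% of all genes, and with scaling outside mitochondrial reads 18.6%. Leaving out single libraries gave 0 without the term and 1 to 3 with it. The 1 called variant, H2afz, became 0 with median centring, no variance trend, set A alone, only the 2 groups, quantile normalization, scaling outside mitochondrial reads (the latter 2 also with the term) and the replicate block on number, and 0 to 1 when single libraries were left out. The variant median of 0.40 became 0.59 in set B, 0.0026 with scaling outside mitochondrial reads and −0.0082 with that scaling and the term.

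Against WT, TG Me-X04+ gave 1 called Hist gene. Array weights, a filter at a mean log2 RPKM of 2, only the 2 groups and limma voom gave 0. The replicate block on number and the term with limma voom gave 2, the term with scaling outside mitochondrial reads 3, set B alone and the term (also with robust variance or the animal block) 4, and the term with quantile normalization 6. The calls over all genes rose too, from 14.3% to 21.8% with the term, 21.7% with the term and quantile normalization and 28.0% with the term and scaling outside mitochondrial reads. Leaving out single libraries gave 0 to 1 without the term and 2 to 7 with it (5 without TG Me-X04+ replicate 1). The 1 called variant became 2 in set B and 0 with quantile normalization or scaling outside mitochondrial reads, with or without the term. The variant median of 0.31 became −0.018 in set A, 0.011 with that scaling and 0.056 with that scaling and the term, and 0.11 to 0.41 when single libraries were left out. For TG Me-X04- against WT the variant median of −0.01 became −0.24 in set A and −0.23 with the replicate block on number. The cause of these changes was not tested. Short Hist genes with 3 or fewer reads in set A limit any fold change there.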
